A study of Mus musculus with 17 samples.

Results

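This account covers 9 genes of the B cell lineage in the inflamed spinal cord of the mouse: Cd22, Cd79a, Cd79b, Ms4a1, Pax5, Pou2af1, Mzb1, Jchain and Prdm1. They were found by their symbols among the array's probe sets with a single annotated gene, which gave 12 of 34958 such probe sets (2 each for Cd22, Ms4a1 and Pax5) and 9 of 18194 genes. The brightest probe set stood for a gene that had several. Thoracic cord was taken from 6 mice given the humanized anti-RGMa antibody, 5 given an isotype control antibody and 6 naïve mice, with 1 array per mouse. The mice of the first 2 groups had targeted EAE: they were immunized with a myelin peptide in complete Freund's adjuvant, received TNF-α and IFN-γ into the thoracic cord through a laminectomy and were given pertussis toxin. Both antibodies were injected intravenously at 10 mg/kg from 9 days post cytokine injection (DPI), and the 4.5 mm of cord around the injection site was taken at 14 DPI, after perfusion. The isotype control was palivizumab. Naïve mice were untreated, so that immunization, surgery and antibody cannot be told apart in the comparisons with them. All 17 mice were female C57BL/6 mice by their labels (C57BL/6J in the study's methods), and the labels also give an age of 8 weeks. This need not be the age at collection, since the study's methods place the cytokine injection weeks after immunization.

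B cells recognise antigen through membrane immunoglobulin, which signals through a pair of partner chains encoded by Cd79a and Cd79b. Cd22 encodes a sialic acid-binding receptor that restrains this signal, and Ms4a1 encodes CD20, the target of B cell-depleting antibodies in multiple sclerosis. Pax5 holds cells to the B cell fate, Pou2af1 is a coactivator that joins octamer-binding factors on B cell promoters, and Prdm1 encodes BLIMP-1, a repressor that turns off the B cell programme as cells become antibody-secreting plasma cells. Mzb1 is a partner of chaperones in the endoplasmic reticulum where immunoglobulin is assembled, and Jchain encodes the chain that joins IgA and IgM into polymers. Some of these genes have other known sources: Prdm1 is used by T cells and myeloid cells, Mzb1 by plasmacytoid dendritic cells, and Cd22 by microglia of aged mice. In EAE and multiple sclerosis, B cells and plasma cells enter the cord and gather in the meninges and around vessels.

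On the mouse genome (GRCm38.p6) 8 of the 9 genes are placed here, Cd79a at chr7:24897497-24901858, Cd22 at chr7:30865404-30880342, Cd79b at chr11:106311341-106314562, Ms4a1 at chr19:11249679-11266149, Pax5 at chr4:44524748-44710694, Pou2af1 at chr9:51213690-51240079, Prdm1 at chr10:44437174-44528558 and Jchain at chr5:88519809-88527897. Promoters, taken from RefSeq as 250 bases before and 50 bases after an annotated transcript start on this build, were matched for 6 of the 9 genes. Those of Cd79a with Pou2af1, and of Cd22 with Prdm1, are shown because each pair had a high correlation among the EAE mice. Capitals mark matches to motifs of B-lineage factors, sought on both strands: the octamer core TGCAAAT, the E-box CAGGTG, the EBF1 motif CCCNNGGGA, the PU.1 motif GAGGAAG and the BLIMP1 motif AGNGAAAG. Each sequence runs 5′ to 3′ on the strand of its gene.
Cd79a promoter, chr7:24897247-24897546, plus strand: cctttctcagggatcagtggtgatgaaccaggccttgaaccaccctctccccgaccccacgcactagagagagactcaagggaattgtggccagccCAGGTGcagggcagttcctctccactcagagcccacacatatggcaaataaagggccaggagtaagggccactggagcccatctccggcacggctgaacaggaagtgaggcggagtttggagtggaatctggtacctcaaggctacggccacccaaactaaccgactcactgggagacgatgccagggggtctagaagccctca
Pou2af1 promoter, chr9:51213440-51213739, plus strand: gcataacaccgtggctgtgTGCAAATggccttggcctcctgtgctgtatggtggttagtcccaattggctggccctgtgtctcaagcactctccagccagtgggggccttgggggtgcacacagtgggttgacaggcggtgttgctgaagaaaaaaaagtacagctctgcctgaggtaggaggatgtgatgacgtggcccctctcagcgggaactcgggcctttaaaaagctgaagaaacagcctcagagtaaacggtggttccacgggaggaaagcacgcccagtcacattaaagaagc
Cd22 promoter, chr7:30878979-30879278, minus strand: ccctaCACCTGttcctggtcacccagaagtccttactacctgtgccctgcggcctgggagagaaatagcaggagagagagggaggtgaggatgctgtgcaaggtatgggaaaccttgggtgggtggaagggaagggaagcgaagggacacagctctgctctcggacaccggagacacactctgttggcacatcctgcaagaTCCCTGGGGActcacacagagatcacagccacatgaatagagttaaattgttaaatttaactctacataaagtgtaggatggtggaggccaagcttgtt
Prdm1 promoter, chr10:44458699-44458998, minus strand: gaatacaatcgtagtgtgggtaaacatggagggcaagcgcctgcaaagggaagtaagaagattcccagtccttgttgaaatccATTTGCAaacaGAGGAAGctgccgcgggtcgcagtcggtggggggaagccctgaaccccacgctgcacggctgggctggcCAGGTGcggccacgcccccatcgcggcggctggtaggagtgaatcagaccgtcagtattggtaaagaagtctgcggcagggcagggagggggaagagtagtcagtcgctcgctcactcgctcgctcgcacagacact
For Cd22 and Prdm1 the start that the table uses lies inside the annotated gene, so that other starts of these genes are not shown. The Cd79a window held an E-box at -154 to -149 from the start, and the Pou2af1 window held an octamer core at -231 to -225. The Cd22 window held an E-box at -245 to -240 and a pair of overlapping EBF1 matches between -49 and -40. The Prdm1 window held an octamer core at -167 to -161, a PU.1 match at -156 to -150 and an E-box at -87 to -82. Of the windows not printed, Pax5 held a BLIMP1 match at -191 to -184 and Jchain an E-box at 6 to 11. Among 32851 promoters of the same length, the octamer core was present in 4.02%, the EBF1 motif in 6.56%, the BLIMP1 motif in 8.63%, the PU.1 motif in 13.6% and the E-box in 20.2%. The octamer core had been shortened after the promoters were seen, and all these matches are letters only.

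RNA of EAE cords carried more of the B-lineage transcripts than RNA of naïve cords. In isotype control mice, 8 of the 9 genes were higher than in naïve mice (limma, Benjamini-Hochberg adjusted p under 0.05 and fold change over 1.5), and 0 lower, against 17.2% of all 18194 genes that rose and 14.9% that fell by this rule. In anti-RGMa mice the same 8 genes were higher than in naïve mice and 0 lower, against 13.2% and 8.3% of all genes. The exception in both was Pax5. Both comparisons share the naïve arrays. The median log2 fold change of the 9 genes was 2.66 for anti-RGMa over naïve mice and 3.29 for isotype control over naïve mice, where the median over all genes was -0.03 and -0.04. By the probe set used, every gene had its highest mean in isotype control mice, its next in anti-RGMa mice and its lowest in naïve mice. The second probe set of Pax5 did not keep this order, at a mean log2 signal of 4.16 in anti-RGMa, 2.95 in isotype control and 3.47 in naïve mice. For Cd22 the order of the antibody groups turned when single arrays were left out. Values below are log2 of the MAS5.0 signal, a brightness with no unit. In RNA of a whole tissue, fewer B cells and less RNA per B cell cannot be told apart.

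Of the receptor and surface genes, Cd79b was dim in naïve mice. Its log2 signal was lowest at 6.64, had a median of 7.78 and was highest at 8.17 in anti-RGMa mice. It was 9.02, 7.56, 8.14, 7.92 and 8.14 in isotype control mice 1 to 5. In naïve mice it ran between 1.96 and 4.76, with a median of 4.65. No EAE mouse overlapped with a naïve mouse, and both EAE groups overlapped with each other. The log2 fold change was 3.42 for anti-RGMa over naïve mice (SE 0.44, limma adjusted p = 2.2e-05) and 3.96 for isotype control over naïve mice (SE 0.47, adjusted p = 5.1e-06). With an offset of 32 added before the logarithm, which damps differences between dim signals, these values were 2.12 and 2.59, still past the threshold.

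Cd79a, the other signalling partner, was dimmer and more scattered. It was lowest at 4.92, had a median of 6.07 and was highest at 7.09 in anti-RGMa mice. In isotype control mice 1 to 5 it was 7.12, 6.34, 7.18, 6.69 and 6.51. Naïve mice ran between 1.26 and 5.25, with a median of 3.59. All isotype control mice were above all naïve mice, but the 3 lowest anti-RGMa mice, at 4.92, 5.05 and 5.30, lay near the highest naïve mouse. Cd79a differed by 2.66 on the log2 scale for anti-RGMa over naïve mice (SE 0.66, limma adjusted p = 0.0045) and 3.39 for isotype control over naïve mice (SE 0.70, adjusted p = 0.00069). Signals this low carry much background, and with the offset of 32 the 2 values shrank to 1.13 and 1.59, still past the threshold.

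Ms4a1 (CD20) was lowest at 6.64, had a median of 7.85 and was highest at 8.81 in anti-RGMa mice. It was 9.90, 7.30, 8.83, 8.04 and 8.66 in isotype control mice 1 to 5, and naïve mice ran between 3.10 and 5.64 with a median of 5.48. All EAE mice were above all naïve mice. Its difference on the log2 scale was 2.79 for anti-RGMa over naïve mice (SE 0.52, limma adjusted p = 0.00055) and 3.48 for isotype control over naïve mice (SE 0.54, adjusted p = 7.0e-05). Its second probe set differed by 2.79 and 3.22 in the same comparisons.

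Cd22, the inhibitory receptor, was lowest at 9.29, had a median of 9.45 and was highest at 10.73 in anti-RGMa mice. Isotype control mice 1 to 5 had 10.77, 9.29, 9.31, 9.37 and 9.97, and naïve mice ran between 5.34 and 6.80 with a median of 6.66. The EAE groups covered nearly the same range, and both lay wholly above the naïve mice. The log2 fold change of Cd22 was 3.23 for anti-RGMa over naïve mice (SE 0.32, limma adjusted p = 1.2e-06) and 3.29 for isotype control over naïve mice (SE 0.34, adjusted p = 1.2e-06). The second probe set gave 3.87 and 4.06. With the offset of 32 the values of Cd22 were 2.82 and 2.88, above those of Cd79b, so that the order of these genes depends on the offset.

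Among the regulators of transcription, Pou2af1 rose most. It was lowest at 5.35, had a median of 7.00 and was highest at 7.59 in anti-RGMa mice. Values of 8.77, 6.89, 7.63, 7.17 and 7.74 were measured in isotype control mice 1 to 5, and naïve mice ran between 3.29 and 4.71 with a median of 3.96. Anti-RGMa mice fell into a lower pair at 5.35 and 5.62 and 4 mice from 6.67 upwards, all above the naïve mice. Pou2af1 differed by 2.70 on the log2 scale for anti-RGMa over naïve mice (SE 0.42, limma adjusted p = 0.00013) and 3.66 for isotype control over naïve mice (SE 0.44, adjusted p = 6.5e-06), or by 1.54 and 2.28 with the offset of 32.

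Prdm1 (BLIMP-1) was lowest at 7.07, had a median of 7.39 and was highest at 8.27 in anti-RGMa mice. Isotype control mice 1 to 5 had 8.26, 8.01, 7.68, 7.75 and 8.34, and naïve mice ran between 5.13 and 6.12 with a median of 5.67. Apart from mouse 6, anti-RGMa mice were below all isotype control mice, and all EAE mice were above all naïve mice. Differences of Prdm1 on the log2 scale were 1.83 for anti-RGMa over naïve mice (SE 0.22, limma adjusted p = 8.7e-06) and 2.38 for isotype control over naïve mice (SE 0.23, adjusted p = 6.3e-07).

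Pax5 was the gene that hardly moved. It ran between 5.53 and 6.45 in anti-RGMa mice, between 5.85 and 6.63 in isotype control mice and between 5.54 and 6.07 in naïve mice, so that all 3 groups overlapped. Its log2 fold change was 0.31 for anti-RGMa over naïve mice (SE 0.19, 95% interval -0.08 to 0.70, limma adjusted p = 0.203). For isotype control over naïve mice it was 0.55 (SE 0.19, adjusted p = 0.0272), which is 1.46-fold and so under the fold threshold. It passed that threshold when isotype control mouse 2 or 4 or naïve mouse 4 was left out, at 0.59, 0.65 and 0.62. The second probe set was dimmer still and gave -0.52 (SE 0.74, adjusted p = 0.606) for isotype control over naïve mice.

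Both secretory genes were raised in EAE. Jchain was lowest at 7.20, had a median of 7.82 and was highest at 8.97 in anti-RGMa mice. Isotype control mice 1 to 5 had 9.28, 8.56, 8.06, 7.76 and 8.98, and naïve mice lay close together between 5.14 and 5.85. The log2 fold change of Jchain was 2.42 for anti-RGMa over naïve mice (SE 0.30, limma adjusted p = 1.2e-05) and 2.95 for isotype control over naïve mice (SE 0.31, adjusted p = 1.6e-06). Mzb1 was lowest at 6.88, had a median of 7.28 and was highest at 7.97 in anti-RGMa mice. Isotype control mice 1 to 5 had 8.52, 7.68, 8.05, 7.25 and 8.68 for this gene, and naïve mice ran between 5.58 and 6.45. No EAE mouse overlapped with a naïve mouse in either gene. Mzb1 differed by 1.44 for anti-RGMa over naïve mice (SE 0.25, adjusted p = 0.00033) and by 2.17 for isotype control over naïve mice (SE 0.26, adjusted p = 6.5e-06).

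**Figure D1:**
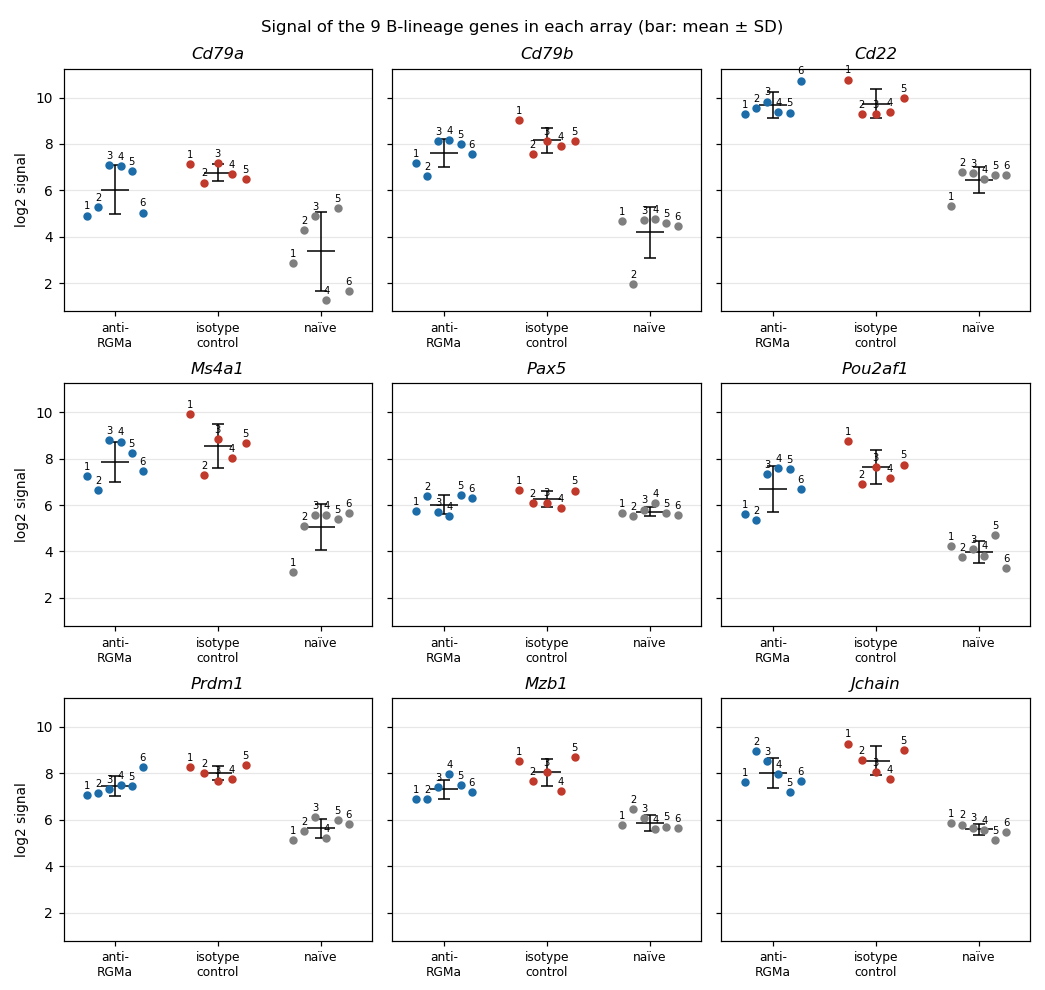
Log2 signal of each of the 9 genes in every mouse, with anti-RGMa mice in blue, isotype control mice in red and naïve mice in grey; numbers are replicates and the black marks give the mean ± SD. For Cd79b, Cd22, Ms4a1, Pou2af1, Prdm1, Mzb1 and Jchain all 11 EAE mice lie above all 6 naïve mice, while the 3 groups overlap for Pax5.

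The groups did not overlap for 8 of the 9 genes between isotype control and naïve mice, with the isotype control mice higher, as was the case for 18.3% of all genes. Between anti-RGMa and naïve mice this held for 7 of the 9, all but Cd79a and Pax5, against 13.9% of all genes. An exact two-sided permutation test of single genes gave p = 0.0043 for those 8 genes between isotype control and naïve mice and p = 0.0022 for those 7 between anti-RGMa and naïve mice. Each is the smallest p that mice of these numbers allow. For Cd79a and Pax5 between anti-RGMa and naïve mice the exact p was 0.0087 and 0.117, and for Pax5 between isotype control and naïve mice it was 0.0087. With the offset of 32 the same 8 genes passed in both comparisons, against 11.8% of all genes that rose in anti-RGMa mice and 15.9% in isotype control mice, at log2 fold changes that were smaller for every gene.

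The EAE cords also carried markers of other infiltrating cells. The mean log2 signal over 17 macrophage and monocyte markers was 10.73 to 11.99 in anti-RGMa mice, 11.04 to 12.14 in isotype control mice and 6.70 to 7.04 in naïve mice, and all 17 rose in both EAE groups. That of 11 T cell markers was 8.51 to 9.26 in anti-RGMa mice, 8.38 to 9.29 in isotype control mice and 5.19 to 5.79 in naïve mice, with 9 higher in both and 1 lower in isotype control mice. Over 9 neutrophil markers the mean was 8.19 to 10.10 in anti-RGMa mice, 8.38 to 10.46 in isotype control mice and 4.71 to 6.95 in naïve mice, and 8 were higher in both. Over 7 markers of plasmacytoid dendritic cells it was 8.79 to 9.59 in anti-RGMa mice, 9.00 to 9.55 in isotype control mice and 7.33 to 7.53 in naïve mice. Over 9 markers of homeostatic microglia it was 9.62 to 9.81 in anti-RGMa mice, 9.52 to 9.98 in isotype control mice and 8.49 to 8.70 in naïve mice. Over 5 erythroid markers it was 4.06 to 5.23 in anti-RGMa mice, 4.18 to 4.88 in isotype control mice and 3.79 to 5.08 in naïve mice, and 0 passed the threshold in any comparison. Neuron markers, which mark the tissue as cord, were high in all mice, at 10.90 to 11.86 in anti-RGMa mice, 10.77 to 11.57 in isotype control mice and 12.21 to 12.33 in naïve mice. They were lower in EAE: 15 of 16 fell in isotype control and 8 of 16 in anti-RGMa mice against naïve mice, and 0 rose. The part of these other cells in the values of Prdm1, Mzb1 and Cd22 was not tested.

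Between the antibody groups, all 9 genes had a lower mean in anti-RGMa than in isotype control mice, but the sign of Cd22 turned when 1 of several arrays was left out, that of Pax5 turned with the mean of its probe sets, and only Mzb1 and Pou2af1, 2 of 9, passed the study's threshold (fold change over 1.5 with p under 0.05 before adjustment). Of all genes, 2.72% passed it as lower and 1.22% as higher. With the offset of 32 the same 2 passed, against 2.26% of all genes as lower. The median log2 fold change of the 9 genes was -0.55, against 0.01 over all genes, of which 48.1% were below 0. After adjustment over all 18194 genes none of the 9 had a p under 0.05 by limma, as against 0.0055% of all genes. Before adjustment 3 (Mzb1, Pou2af1 and Prdm1) had a limma p under 0.05, as did 15.8% of all genes. Both EAE groups overlapped for all 9 genes, as they did for all but the 0.566% of genes that were lower and the 0.242% that were higher in anti-RGMa mice without overlap. This comparison uses the same isotype control mice as that with naïve mice.

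Mzb1 averaged 7.30 ± 0.41 (SD, n = 6) in anti-RGMa mice and 8.03 ± 0.59 (SD, n = 5) in isotype control mice. All 6 anti-RGMa mice were below the mean of the isotype control mice, and isotype control mouse 4, at 7.25, lay among them. The log2 fold change was -0.73 (SE 0.26, 95% interval -1.29 to -0.18, limma p = 0.0131, adjusted p = 0.240), and the exact permutation p was 0.0433. Without isotype control mouse 5 it was -0.57 and missed the fold threshold.

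Pou2af1 averaged 6.69 ± 0.99 (SD, n = 6) in anti-RGMa mice and 7.64 ± 0.72 (SD, n = 5) in isotype control mice. All 6 anti-RGMa mice were below the isotype control mean, with mice 1 and 2 far below the others. The log2 fold change was -0.95 (SE 0.44, 95% interval -1.89 to -0.02, limma p = 0.0466, adjusted p = 0.314), and the exact permutation p was 0.121. The call was lost when any of 10 of the 17 arrays was left out (anti-RGMa mice 1, 2 and 6, isotype control mice 1, 3 and 5 and naïve mice 1 to 4), with values from -1.14 to -0.67 over all 17.

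Prdm1 averaged 7.46 ± 0.43 (SD, n = 6) in anti-RGMa mice and 8.01 ± 0.30 (SD, n = 5) in isotype control mice, and 5 of the 6 anti-RGMa mice were below the isotype control mean. Its log2 fold change of -0.55 (SE 0.23, 95% interval -1.03 to -0.06, limma p = 0.0299, adjusted p = 0.286) is 1.46-fold, just under the fold threshold, and the exact permutation p was 0.0476. The exception was anti-RGMa mouse 6, whose Prdm1 signal was 8.27. Without that mouse the value was -0.71 with a limma adjusted p of 0.0422. Leaving it out moved other genes as well: 537 of all genes then passed the study's threshold as higher, against 222 with it. How many of all genes had an adjusted p under 0.05 without that mouse was not counted. Prdm1 also passed the fold threshold without isotype control mouse 3 or 4, at -0.63 and -0.61. With the offset of 32 the exact p was 0.0520.

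For the other 6 genes the difference was within the spread of the mice. Jchain averaged 7.99 ± 0.65 in anti-RGMa mice and 8.53 ± 0.63 in isotype control mice (SD, n = 6 and 5), a log2 fold change of -0.54 (95% interval -1.20 to 0.12, exact permutation p = 0.178), and of the 17 arrays left out singly it passed the threshold without anti-RGMa mouse 2 or isotype control mouse 4, at -0.73 each. The intervals were wide for Cd79a (-2.21 to 0.75), Ms4a1 (-1.85 to 0.46) and Cd79b (-1.53 to 0.45), whose log2 fold changes were -0.73, -0.69 and -0.54. Without isotype control mouse 1 Ms4a1 gave -0.35 and Cd79b -0.32, and without anti-RGMa mouse 2 they gave -0.45 and -0.34. Jchain gave -0.35 without isotype control mouse 1. Cd22 gave the smallest difference, -0.06, with an interval of -0.77 to 0.66, which holds changes in either direction. It was above 0 without isotype control mouse 1 (0.20) or anti-RGMa mouse 1 (0.02), 4 (0.00482) or 5 (0.00763), and ran from -0.27, without anti-RGMa mouse 6, to 0.20 over the arrays left out singly. Pax5 gave -0.24 (-0.65 to 0.18), and its second probe set had the opposite sign at 1.21 (-0.36 to 2.77). The mean of both probe sets gave 0.49, and the value of the brighter one was -0.14 without anti-RGMa mouse 4 or without isotype control mouse 1 or 5. The exact permutation p of these 5 genes ran from 0.182 for Cd79b to 0.883 for Cd22.

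**Figure D2:**
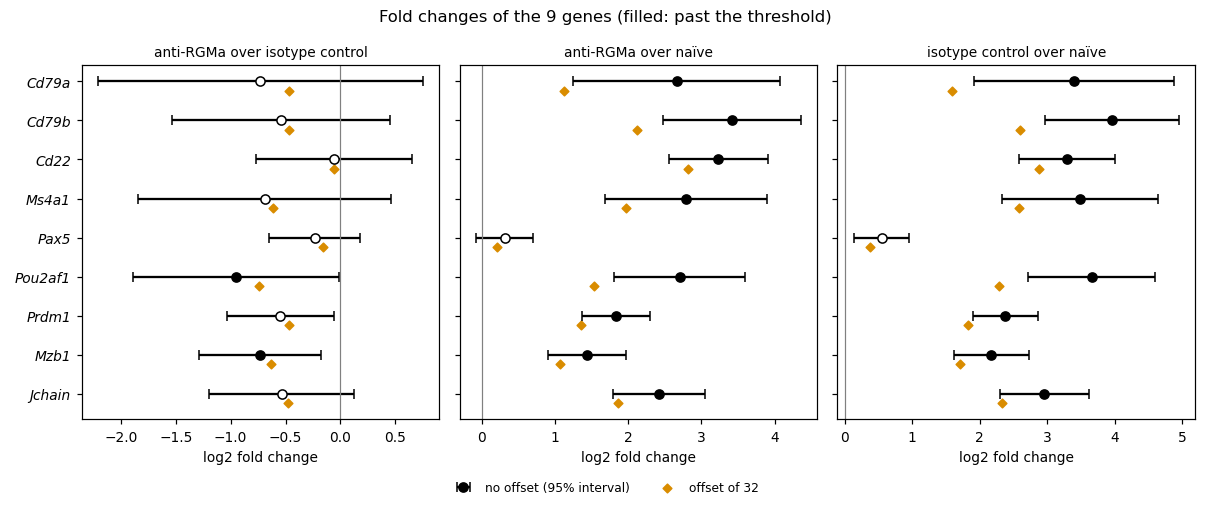
Log2 fold change of each gene in the 3 comparisons, with the 95% interval of limma as bars, filled points where the gene passed the threshold of that comparison, and diamonds for the value with an offset of 32. Between the antibody groups all 9 points lie below 0 and 2 are filled, Pou2af1 and Mzb1, while 8 of 9 are filled in each comparison with naïve mice.

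Values of other cells moved in the same arrays. Of 17 macrophage and monocyte markers 3 passed the study's threshold as lower in anti-RGMa than in isotype control mice and 0 as higher. Their median log2 fold change was -0.30, and 15 of 17 were below 0. Of 11 T cell markers 0 passed, with a median of -0.16, and of 7 markers of plasmacytoid dendritic cells 0 passed, with a median of -0.19. Neutrophil markers gave 0 of 9 past the threshold, a median of 0.05 and 3 of 9 below 0. Neuron markers were the other way round, with 2 of 16 past the threshold as higher in anti-RGMa mice, 0 as lower, a median of 0.44 and 0 of 16 below 0. In anti-RGMa mouse 6 and isotype control mouse 1, each the highest of its group for Cd22, the mean of the macrophage markers was 11.99 and 12.14, the highest of each group, and that of the neuron markers was 10.90 and 10.77, the lowest of each group. The mean over 16 skeletal muscle markers was 5.80 to 7.36 in anti-RGMa mice, 5.72, 5.32, 9.01, 12.90 and 9.12 in isotype control mice 1 to 5 and 4.71 to 8.18 in naïve mice. Without isotype control mice 3, 4 and 5 Mzb1 differed by -0.80, Jchain by -0.92 and Pou2af1 by -1.15, and Mzb1 and Jchain passed the threshold while Pou2af1 did not (limma adjusted p = 0.472, 0.472 and 0.512). The part of macrophage content in the differences between the antibody groups was not tested.

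Some of these genes rose and fell together from mouse to mouse. Deviations from the group mean of log2(signal + 32) were compared over the 11 EAE mice for all 36 pairs, with permutation within groups. Of the pairs, 32 had a Pearson r above 0, with a median of 0.38 and a range of -0.22 to 0.98, and 5 had an adjusted p under 0.05. Cd79b and Pou2af1 gave r = 0.98 (Spearman's rho 0.98, adjusted permutation p = 0.0011, r = 0.97 without the 2 mice farthest from the median of the first-named gene). The second-named gene played no part in that choice of mice, here and below. Cd79b and Ms4a1 gave r = 0.97 (rho 0.97, adjusted permutation p = 0.0011, 0.96 without the 2 mice). For Ms4a1 and Pou2af1 r was 0.94 (rho 0.94, adjusted permutation p = 0.0023, 0.92 without the 2 mice). The other 2 pairs were Pou2af1 with Mzb1, at r = 0.78 (rho 0.84, adjusted permutation p = 0.0365, 0.74 without the 2 mice), and Cd79a with Ms4a1, at r = 0.80 (rho 0.78, adjusted permutation p = 0.0385, 0.71 without the 2 mice).

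Cd79a, Cd79b, Ms4a1 and Pou2af1, a set named after the correlations were seen, were low in the same mice. Anti-RGMa mice 1, 2 and 6 lay below their group mean for all 4, as did isotype control mice 2 and 4. Anti-RGMa mice 3, 4 and 5 and isotype control mouse 1 lay above it for all 4. Mzb1 gave r from 0.54 to 0.78 with these 4 genes, with an adjusted permutation p under 0.05 only for Pou2af1. Pax5 gave r from -0.22 to 0.16 with them. Cd79a with Pou2af1, whose promoters are printed above, gave r = 0.79 (rho 0.76, adjusted permutation p = 0.0542, r = 0.75 without the 2 farthest mice), which missed the threshold. Cd22 with Prdm1 gave r = 0.80 (rho 0.67, adjusted permutation p = 0.0542), which also missed the threshold, and without the 2 farthest mice r was 0.52, so that this relation rests on anti-RGMa mouse 6 and isotype control mouse 1. Cd22 with Cd79a gave r = -0.12 (rho 0.02, adjusted permutation p = 0.943), with Cd79b 0.42 (rho 0.45, adjusted permutation p = 0.529) and with Ms4a1 0.37 (rho 0.46, adjusted permutation p = 0.549), and no test compared these correlations with each other. Jchain gave r from -0.02 to 0.15 with Cd79a, Cd79b, Ms4a1 and Pou2af1, and was high in anti-RGMa mouse 2, where those 4 were low.

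**Figure D3:**
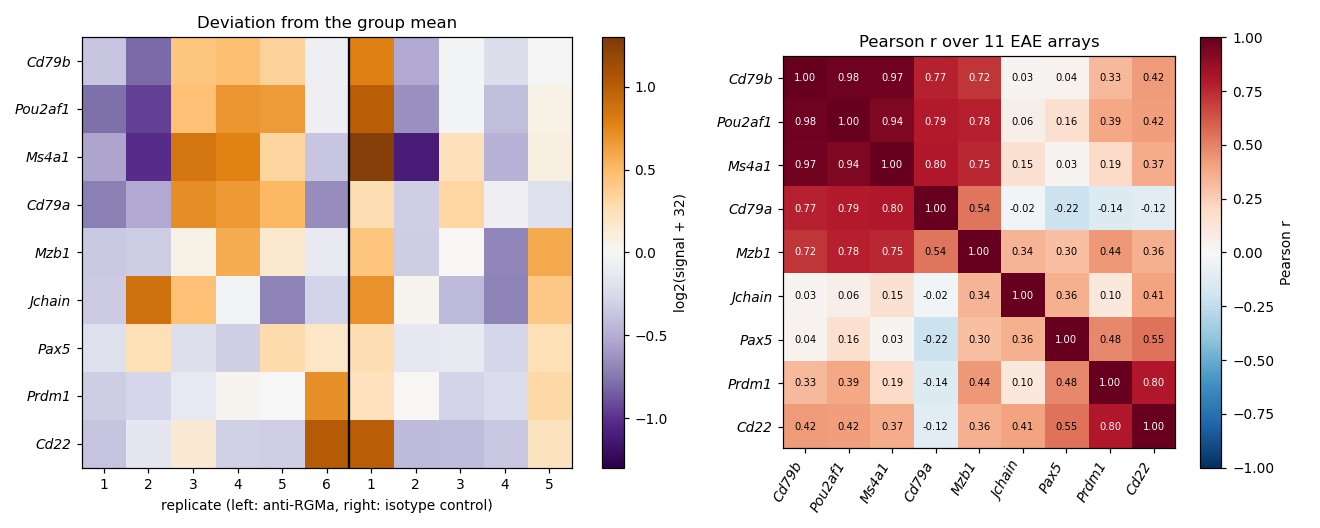
Left, deviation of each gene from its group mean of log2(signal + 32) in the 6 anti-RGMa mice and the 5 isotype control mice (orange above, purple below the mean); right, Pearson r over the 11 EAE mice for each pair of genes. Cd79b, Pou2af1, Ms4a1 and Cd79a form a block with r from 0.77 to 0.98, Prdm1 and Cd22 pair at 0.80, and Jchain has r of at most 0.41 with any gene.

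The mean deviation of the 9 genes was highest in isotype control mouse 1 (0.66) and lowest in anti-RGMa mouse 1 (-0.45). Among 12015 genes whose log2 signal averaged 7 or more over the EAE mice, the 5 whose deviations were most like it were Ly6d (r = 0.93 over 11 mice), Nfkbid (0.93), Sh3bp1 (0.93), Mcmbp (0.92) and Siglecg (0.91). Ly6d marks early B cells and plasmacytoid dendritic cells, Nfkbid encodes a nuclear regulator of NF-κB, Siglecg encodes an inhibitory lectin of B cells, Sh3bp1 a GTPase-activating protein and Mcmbp a partner of the replicative helicase. Siglecg and Ly6d also belong to the lists of surface genes and of plasmacytoid dendritic cell markers. These 5 were picked as the highest of many and carry no test.

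Of 77 further measured genes linked to B cells, 49 rose and 3 fell between isotype control and naïve mice, and 47 rose and 2 fell between anti-RGMa and naïve mice. Of all genes, 17.2% rose and 14.9% fell in the first comparison, and 13.2% rose and 8.3% fell in the second. These shares also apply to the counts of each list below. All 17 macrophage and monocyte markers rose in both comparisons as well. Of 16 further surface and identity genes, 13 were higher in isotype control than in naïve mice and 0 lower, with a median log2 fold change of 2.62, and 14 were higher in anti-RGMa than in naïve mice. The 3 with the smallest p were Ly86, the partner of the Toll-like CD180 receptor, Cd37, a tetraspanin, and H2-Ob, a chain of the class II peptide-loading regulator. Ly86 averaged 13.26 ± 0.17 in anti-RGMa mice, 13.23 ± 0.26 in isotype control mice and 10.06 ± 0.18 in naïve mice, and its log2 fold change for isotype control over naïve mice was 3.17 (limma adjusted p = 4.1e-11). It was thus already bright in naïve mice, where Cd79a averaged 3.38 and Cd22 6.45. The part of other cells in the values of Ly86 was not tested. For Cd37 and H2-Ob that fold change was 4.07 and 4.41.

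Of 18 genes of B cell receptor signalling, 14 rose and 1 (Prkcb, a protein kinase C) fell between isotype control and naïve mice. The 3 with the smallest p were Fcgr2b, the inhibitory IgG Fc receptor, at 5.43, Ptpn6, a phosphatase downstream of inhibitory receptors, at 4.14 and Blnk, the adaptor under the receptor, at 3.55. Fcgr2b and Ptpn6 are also genes of myeloid cells. Of 10 further transcription factors 6 rose and 1 (Bcl11a) fell, with Irf8 at 4.50, Ikzf3 at 5.23 and Spib at 2.42. Between anti-RGMa and naïve mice 4 of the 10 rose and 2 fell, Bcl11a at -0.80 and Ebf1 at -0.69. Ebf1 averaged 9.11 in anti-RGMa mice, 9.23 in isotype control mice and 9.80 in naïve mice. Ikzf3 averaged 7.88 ± 0.53 in anti-RGMa mice, 8.07 ± 0.49 in isotype control mice and 2.83 ± 1.52 in naïve mice. Irf8 is shared with microglia and macrophages, and Ikzf3 with T cells.

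Of 14 further plasma cell genes, 6 rose, 1 (Eaf2) fell and 7 did not pass between isotype control and naïve mice, with a median log2 fold change of 0.41. Besides Eaf2, 3 genes had a lower mean in isotype control than in naïve mice. These were Tnfrsf17 (2.99 and 3.63), Derl3 (6.41 and 6.96) and Txndc5 (10.31 and 10.41). Sdc1, which encodes the plasma cell surface proteoglycan CD138 and is also found on epithelium and other cells, rose by 3.33, and the chaperone genes Creld2 and Pdia4 by 1.11 and 0.82. Of the immunoglobulin constant regions 3 of 12 were measured by a probe set of their own. Igha, the IgA heavy chain, averaged 8.86 ± 0.85 in anti-RGMa mice, 9.30 ± 0.61 in isotype control mice and 7.36 ± 0.29 in naïve mice, and its log2 fold change was 1.94 for isotype control over naïve mice (limma adjusted p = 0.00033). Ighm, the IgM heavy chain, averaged 11.18 in anti-RGMa mice, 11.16 in isotype control mice and 10.92 in naïve mice, and neither it (0.24) nor Ighg3 (0.04) passed. Of 6 genes of precursor B cells 1 rose, Vpreb3, at 2.12. The recombination genes Rag1 and Dntt gave -1.47 (SE 1.01) and 1.07 (SE 0.75) and did not pass. Their signals were low and carry much background: Rag1 averaged 0.82 in isotype control and 2.30 in naïve mice, and Dntt 5.18 and 4.12.

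Of 10 factors for survival and homing of B cells, 8 rose between isotype control and naïve mice. Cxcl13, the chemokine that draws B cells into follicles, averaged 10.68 ± 0.80 in anti-RGMa mice, 11.31 ± 0.84 in isotype control mice and 4.96 ± 0.71 in naïve mice, a log2 fold change of 6.35 for isotype control over naïve mice (limma adjusted p = 2.8e-08). Ltb (lymphotoxin beta), needed for lymphoid follicles, differed by 6.00 and Ccr6, a chemokine receptor of B cells and Th17 cells, by 3.40.

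Between the antibody groups 4 of the 77 further genes passed the study's threshold, all lower in anti-RGMa mice, where 2.72% of all genes were lower and 1.22% higher by this rule. Sdc1 had the smallest p. It ran from 7.71 to 9.72 with a median of 8.32 in anti-RGMa mice, against 9.45 to 9.91 with a median of 9.85 in isotype control mice, so that the groups overlapped. Its log2 fold change was -1.29 (SE 0.25, limma adjusted p = 0.184). Fkbp11, a prolyl isomerase of secretory cells, averaged 6.09 ± 0.36 in anti-RGMa mice and 6.83 ± 0.35 in isotype control mice (-0.74, SE 0.19, limma adjusted p = 0.188), and naïve mice had 6.57 ± 0.23. Fcrla, an Fc receptor-like protein of germinal centre B cells, averaged 5.52 ± 0.46 in anti-RGMa mice and 6.33 ± 0.43 in isotype control mice (-0.81, SE 0.28, limma adjusted p = 0.226). Il6, a growth factor for plasma cells among many other roles, ran from 1.93 to 8.04 in anti-RGMa mice and from 7.03 to 8.69 in isotype control mice (-2.03, SE 0.80, limma adjusted p = 0.271). The median log2 fold change was -0.23 over the surface genes, -0.16 over the transcription factors and over the signalling genes, -0.19 over the plasma cell genes and -0.49 over the survival and homing factors. In these lists 0 genes passed the threshold as higher. Values below 0 were found for 11 of 16 surface genes, 8 of 10 transcription factors and 13 of 18 signalling genes. They were found for 10 of 14 plasma cell genes and 9 of 10 survival and homing factors, and the rest were above 0.

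**Figure D4:**
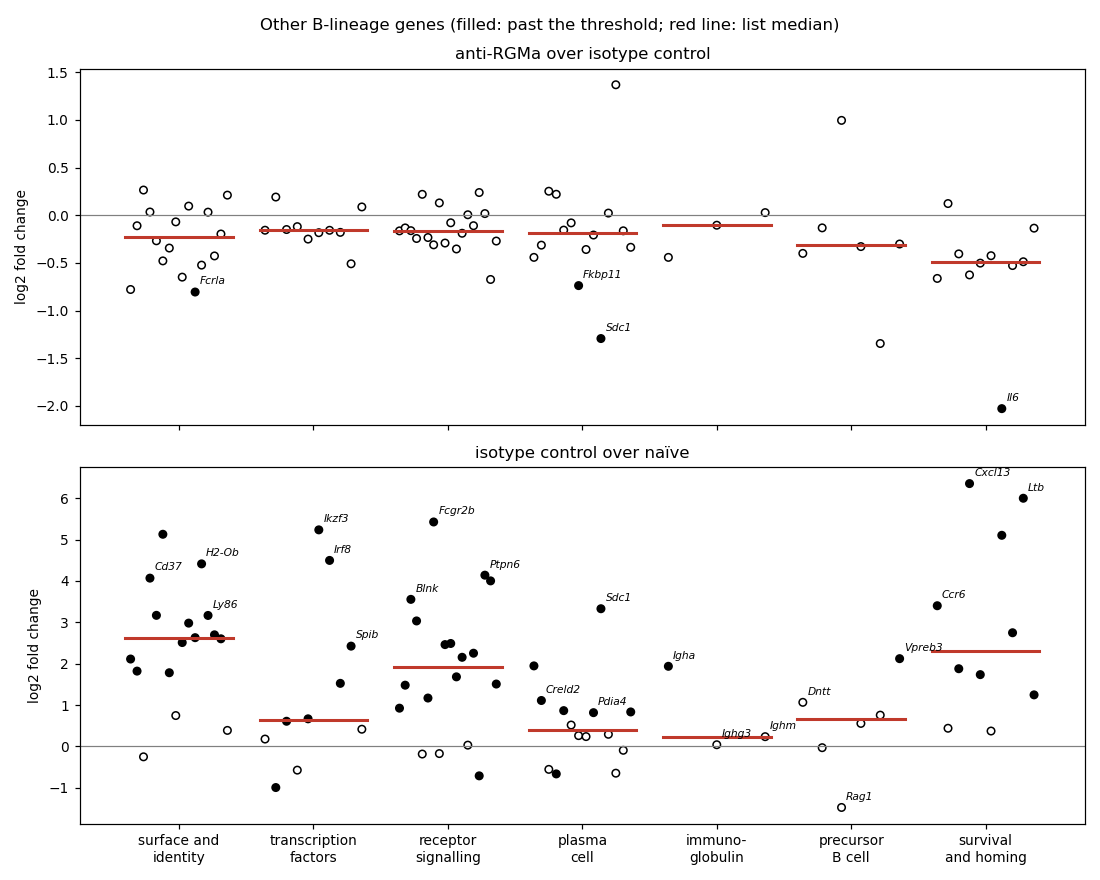
Log2 fold change of each further gene linked to B cells by list, for anti-RGMa over isotype control mice (top) and isotype control over naïve mice (bottom). Filled points passed the threshold of the comparison and red lines are list medians. The survival and homing list holds factors that act on B cells. In the top panel 4 genes are filled, Fcrla, Fkbp11, Sdc1 and Il6, all below 0, while most points of the bottom panel lie above 0.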

How the data were processed

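Total RNA of 17 spinal cords was hybridised by the authors to Mouse Genome 430 2.0 arrays, 1 mouse per array. The deposited values are linear signal intensities, which the authors computed with MAS5.0 (Microarray Suite) and scaled globally. Beside MAS5, the submitters' notes list the package affy; its version and the target of the scaling were not given in the sources used here. Every array had the same mean signal once 2% of values at either end were removed, and median signals were 136 to 157 in anti-RGMa, 137 to 165 in isotype control and 132 to 145 in naïve mice. Detection calls were not used, so low signals carry background. The number of arrays limits the precision. Nothing in the labels gives a batch.

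Of 45101 probe sets, 34958 had 1 gene in the platform annotation, 932 several and 9211 none. The gene table of GRCm38.p6 held 34754 of the 34958 and changed 0 symbols. Several probe sets were available for 9012 genes, and the brightest over all arrays was used. Log2 signals, with no offset and no filter, were fitted with limma, which the study's methods name (version 3.58.1 in R 4.3.3, lmFit and eBayes, all 3 groups in 1 fit). P-values were adjusted by Benjamini-Hochberg over 18194 genes. The study's threshold (fold change over 1.5 with p under 0.05 before adjustment) served between the antibody groups, and an adjusted p under 0.05 with the same fold change against naïve mice. Single genes were also compared by exact two-sided permutation, over 462 splits for the antibody groups. Correlations used 100000 permutations within groups, adjusted over 36 pairs.

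The 9 genes and all lists were chosen with earlier results of these data known. Named further genes were, per list, those called between the antibody groups and the 3 with the smallest p between isotype control and naïve mice, and the 5 genes most like the mean of the 9. Genes that fell or had a lower mean in a list of mostly rising genes were named after their values were seen. Alternatives were an offset of 32, a filter on dim genes (mean log2 signal of at least 7 in a group, 12520 genes), quantile normalization, the mean of probe sets, only the groups compared, a trended robust variance, array weights, a replicate block, isotype control mice 3, 4 and 5 left out together, and each array left out. On simulated data over 18194 genes for the antibody comparison, 70% of 100 genes changed by 0.75 log2 and 90% of 100 changed by 1.5 passed its threshold, as did 332 unchanged genes. Python 3.11.15 with scipy 1.17.1 and matplotlib 3.10.9 was used.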

Additional observations from a re-analysis of the deposited data

Results flagged for a closer look

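In 5 of 27 combinations of gene and group 1 mouse stood apart from the rest of its group by Dixon's test at the 95% level, which chance alone does in about 1 of 20 groups. Cd22 was 10.73 in anti-RGMa mouse 6, where the other anti-RGMa mice had 9.29 to 9.83. Prdm1 was 8.27 in the same mouse, where the others had 7.07 to 7.50, and without it the log2 fold change of Prdm1 for anti-RGMa over isotype control mice was -0.71 (limma adjusted p = 0.0422). Without that mouse 537 of all genes passed the study's threshold as higher, against 222 with it. In naïve mice the lowest signals stood apart: Cd79b was 1.96 in mouse 2 (the others had 4.47 to 4.76), Cd22 was 5.34 in mouse 1 (6.51 to 6.80) and Ms4a1 was 3.10 in mouse 1 (5.11 to 5.64). Calls for these 3 genes against naïve mice held without either mouse.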

How the results depend on the processing

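Against naïve mice, all 79 values of single genes under the alternatives other than left-out arrays kept their direction and call in each comparison. Between the antibody groups 79 of 88 did, 5 lost (4 of them Pou2af1 and 1 the exact test of Prdm1) and 3 gained a call, and 1 turned its sign (Pax5, 0.49 with the mean of probe sets). The filter on dim genes removed Cd79a and Pax5, whose highest group means were 6.76 and 6.26, so neither has a value under it. With arrays left out, Cd22 between the antibody groups ran from -0.27 to 0.20, above 0 without anti-RGMa mouse 1 (0.0208), 4 (0.00482) or 5 (0.00763) or isotype control mouse 1 (0.20). Counts of the 9 genes with each array left out were 8 to 9 higher for isotype control over naïve mice, 8 to 8 for anti-RGMa over naïve mice, and 0 to 4 lower for anti-RGMa over isotype control mice (0 without isotype control mouse 5, 1 without anti-RGMa mouse 1, isotype control mouse 1 or any of naïve mice 1 to 4, and 4 without isotype control mouse 4). That last count was 1 instead of 2 with only the groups compared, where Pou2af1 was not called (limma adjusted p = 0.477). Pou2af1 was also lost with array weights (-0.81, adjusted p = 0.350) and without isotype control mice 3, 4 and 5 (-1.15, adjusted p = 0.512), where Jchain was gained (-0.92), and Prdm1 was gained with array weights (-0.63, adjusted p = 0.151). Over the arrays left out singly, the adjusted p of Pou2af1 ran from 0.222 to 0.555, that of Mzb1 from 0.124 to 0.466 and that of Prdm1 from 0.0422 to 0.514. Of all genes, 222 were higher in anti-RGMa than in isotype control mice, but 81 with the offset of 32, 93 after the filter on dim genes, 348 with the replicate block, 517 without isotype control mice 3, 4 and 5 and 180 to 537 with each array left out; 494 were lower, but 308 without those 3 mice and 349 to 685 with each array left out. The cause of these changes was not tested. Replicate numbers of the titles did not pair the mice (correlations of deviations from -0.24 to 0.33). With the replicate block, Pou2af1 gave -0.88 (limma adjusted p = 0.279), no longer called, and Prdm1 -0.65 (adjusted p = 0.165), now called, and no other call of the 9 genes changed. With an offset of 32 the exact permutation p of Prdm1 was 0.0520. On log2(signal) without the offset, 28 of 36 pairs had r above 0 and 5 an adjusted p under 0.05. The low signals of Cd79a, Pax5 and naïve mice limit all fold changes there.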
